A study of Mus musculus with 24 samples.

Results

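The olfactory bulb of Cdr1as knockout mice was compared with that of wild-type mice by sequencing of ribosomal RNA-depleted total RNA. The 6 olfactory bulb libraries, 3 knockout and 3 wild type, were taken by their labels from a series of 24 libraries, in which each genotype also has 3 libraries from cerebellum, 3 from cortex and 3 from hippocampus. All animals are labelled C57BL/6, the tissue is labelled as dissected olfactory bulb, and RNA was extracted with TRIzol and prepared with a stranded total RNA kit after RNase H-based removal of ribosomal RNA. The labels give neither age nor sex. Nor do the labels say whether replicates 1 to 3 came from separate animals, so that p-values measure only the spread between these libraries, which may be technical.

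Cdr1as, a neuronal circular RNA, is densely covered with sites for miR-7, a small regulatory RNA, and also has a site at which miR-671 directs its cleavage. miR-7 is bound through its seed, the bases near its 5′ end that pair with sites in target messenger RNAs, and in the olfactory bulb miR-7 is known to restrain Pax6 in the lineage of the dopaminergic periglomerular cells. Immediate early genes, such as those of the Fos, Egr and Nr4a families, are transcribed within minutes of synaptic activity or other stimuli and encode mostly transcription factors. The bulb itself holds glutamatergic mitral and tufted cells, a much larger population of GABAergic granule cells, periglomerular interneurons, and neuroblasts that migrate in throughout life.

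The mature microRNAs that bind Cdr1as are shown from RefSeq (GRCm38.p6), 5′ to 3′, with the seed (bases 2 to 8) in capitals, because the target sites examined further on are defined by them.
miR-7a-5p: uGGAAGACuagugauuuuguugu
miR-7b-5p: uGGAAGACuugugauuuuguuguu
miR-671-5p: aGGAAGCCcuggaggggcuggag
miR-7a-5p and miR-7b-5p share their seed, and miR-671-5p has another. The site that pairs with the miR-7 seed reads GTCTTCC in a target transcript, or GTCTTCCA where a further A follows.

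The libraries held between 5175203 and 21263970 counts assigned to genes. Wild type 1 and knockout 2 were the shallowest, with 7395560 and 5175203, and were also of low complexity: when every library was thinned to 5175203 counts, knockout 2 had 14393 genes with at least 1 count and wild type 1 had 16335, against 19078 to 19899 in the other 4. Results are therefore given for all 6 libraries. Those of each gene list reported within the bulb, and of many named genes, are given again without wild type 1 and knockout 2. Defining genes of the bulb stood apart from the other regions in every library: Doc2g, of mitral and tufted cells, lay at 5.61 to 5.98 log2 CPM (counts scaled to library size) against at most 1.67 elsewhere, and Th, the rate-limiting enzyme of dopamine synthesis, at 6.86 to 7.12 against at most 3.05. Gabra6, of cerebellar granule cells, had no count in any bulb library.

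Cdr1as was nearly absent from the knockout libraries. Listed in the files as Cdr1asG, it stood at 1046, 906.6 and 884 CPM in the wild-type libraries, from 7719, 19524 and 10508 counts, and at 0.221, 0.191 and 0.576 CPM in the knockout libraries, from 4, 1 and 10 counts. The knockout mean was 0.0348% of the wild-type mean, and Cdr1asG fell by 11.29 on the log2 scale (SE 0.21, n = 3 against 3, adjusted p = 8.41e-09, edgeR's quasi-likelihood test with Benjamini-Hochberg adjustment over all genes). For genes other than Cdr1as, a lower value in bulk tissue can come from fewer cells of a type or from less RNA per cell, which cannot be told apart. Cdr1, annotated at the same locus, had 4 counts in wild type 2 and none in the other 5 libraries.

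C230004F18Rik, a noncoding transcript of the Cdr1as locus, was higher in each knockout library than in any wild-type library. It stood at 101, 113 and 92.2 CPM in wild type and 152, 195 and 229 CPM in knockout, a log2 difference of 0.91 (SE 0.15) that did not pass the test over all genes (edgeR's quasi-likelihood test, adjusted p = 0.313). How the counting divided reads between overlapping transcripts is not stated in the labels, so this value is uncertain.

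Of 15831 genes tested, 4 passed an adjusted p of 0.05, which is 0.0253% (edgeR's quasi-likelihood test). The 1 gene that fell (0.00632%) was Cdr1as, and the 3 that rose (0.019%) were the immediate early genes Fosl2, Egr3 and Fosb. At an unadjusted p under 0.05 there were 384 genes (2.43%), 240 higher in knockout (1.52%) and 144 lower (0.91%), and the median log2 difference over all genes tested was -0.013. DESeq2 called 17 genes on the same libraries (0.107%), 1 lower and 16 higher. Beside Cdr1as, Fosl2, Egr3 and Fosb these were the immediate early genes Nr4a3, Atf3, Nr4a2, Npas4, Per1, Tiparp, Egr4, Sik1 and 1700016P03Rik, together with Irs2, Dnajb1, Banp and C230004F18Rik. All fold changes below are knockout minus wild type. A gene is said to pass where edgeR called it over all genes without pairing of replicate numbers, unless another fit or DESeq2 is named.

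**Figure D1:**
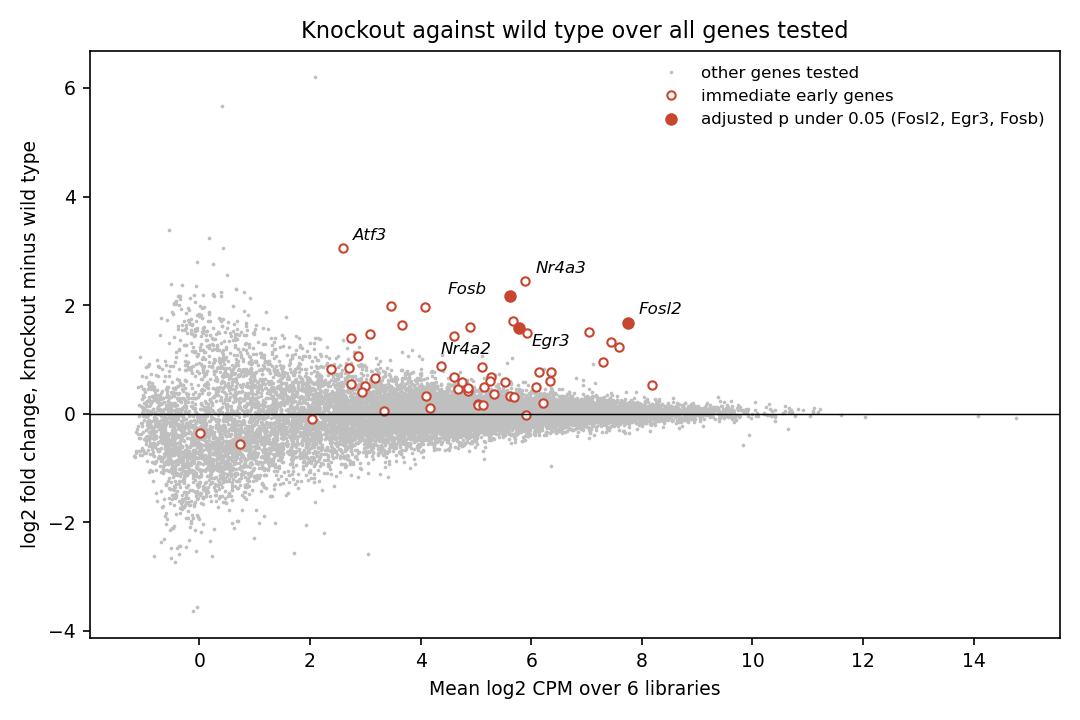
Log2 fold change of knockout over wild type (vertical axis) against mean log2 CPM over the 6 libraries (horizontal axis), 1 point for each gene tested other than Cdr1as. Open circles mark 55 immediate early genes, of which 51 lie above 0, and filled circles mark Fosl2, Egr3 and Fosb, the genes with an adjusted p under 0.05.

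The immediate early genes as a list were higher in the knockout bulb. The list was chosen with earlier results of these data known, so its counts describe these libraries and are no independent test. Of 57 genes listed, 56 were in the files and 55 were tested. Among these 55, 51 were higher by sign (against 47.8% of all genes tested), 32 were higher at an unadjusted p under 0.05 (58.2%, against 1.52% of all genes tested), none was lower at that level, and 3 passed the test over all genes. In 32 of them every knockout library lay above every wild-type library, as it did in 5.44% of all genes tested. The median log2 difference of the list was 0.65, with a range from -0.56 to 3.05.

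The list differed between libraries as well as between genotypes. Taking for each gene its log2 CPM minus its mean over the 6 libraries, the list's median was -0.63 in wild type 1, -0.39 in wild type 2 and -0.02 in wild type 3, and 0.32, 0.43 and 0.46 in knockout 1, 2 and 3. Wild type 3 was thus the wild-type library nearest to the knockouts, and the groups did not overlap. Without wild type 1 and knockout 2, 33 of the 55 were higher at an unadjusted p under 0.05 (60%, against 3.7% of 16523 genes tested), none was lower (against 4.13%), and the median log2 difference was 0.56. In all, 7.83% of genes tested reached that level in these 4 libraries. The 2 knockout libraries lay above the 2 wild-type libraries for 46 of them (83.6%, against 19.2% of all genes tested).

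**Figure D2:**
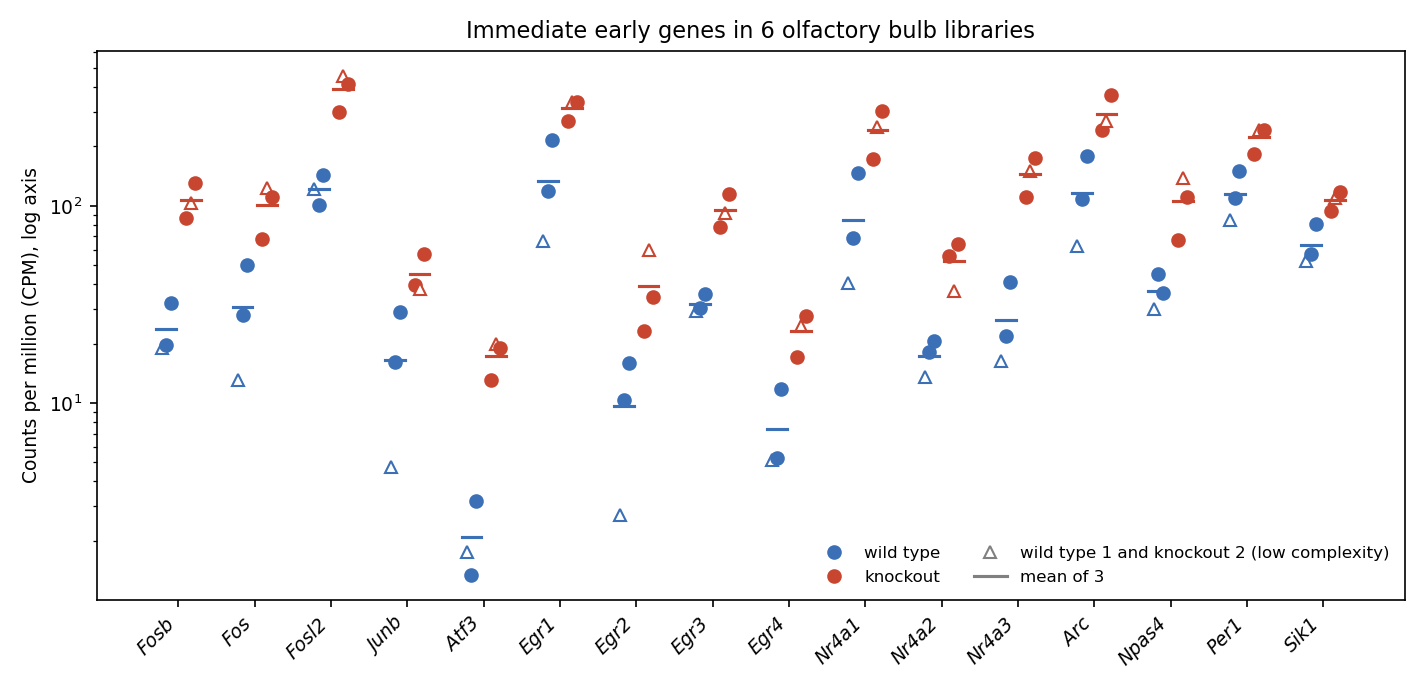
CPM on a log axis of 16 immediate early genes in each olfactory bulb library, with wild type in blue and knockout in red. Open triangles are the low-complexity libraries wild type 1 and knockout 2, and bars are means of 3. For each gene shown, the knockout libraries sit above the wild-type libraries.

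Among the subunits of the AP-1 transcription factor, Fosl2 and Fosb rose. Fosl2 stood at 121, 102 and 143 CPM in wild type and 298, 457 and 415 CPM in knockout, a log2 fold change of 1.68 (SE 0.17, edgeR's quasi-likelihood adjusted p = 0.0167). Fosb stood at 19.1, 19.6 and 32.1 CPM in wild type and 87.1, 103 and 130 CPM in knockout, a log2 fold change of 2.17 (SE 0.23, adjusted p = 0.0167). In both genes the lowest knockout library was more than 2 times the highest wild-type library.

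The other AP-1 genes named here were higher without passing edgeR's test, or were not higher. Atf3, a stress-induced partner of the Jun proteins, stood at 1.76, 1.35 and 3.2 CPM in wild type and 13.1, 20.02 and 18.9 CPM in knockout, a log2 difference of 3.05 (SE 0.40, edgeR adjusted p = 0.0673) and the highest of the immediate early genes tested. Fos stood at 13.1, 28.1 and 50.4 CPM in wild type and 68.2, 124 and 111 CPM in knockout. Its log2 difference was 1.70 (SE 0.40, edgeR adjusted p = 0.992), and its wild-type libraries differed more among themselves than those of Fosl2. Without wild type 1 and knockout 2 the log2 difference was 1.22 for Fos (SE 0.52) and 2.92 for Atf3 (SE 0.41). Junb stood at 4.74, 16.1 and 28.9 CPM in wild type and 39.9, 37.8 and 57.2 CPM in knockout, whereas Jun, at 51.5 to 70.1 CPM in wild type and 48.1 to 65.4 CPM in knockout, overlapped between the genotypes.

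Of the zinc finger factors of the Egr family, Egr3 rose. It stood at 29.4, 30.2 and 35.6 CPM in wild type and 78.5, 92.5 and 115 CPM in knockout, a log2 fold change of 1.58 (SE 0.16, edgeR's quasi-likelihood adjusted p = 0.0167). Egr3 was the most even of the family within wild type. Egr1 stood at 66, 119 and 216 CPM in wild type and 270.0, 334 and 337 CPM in knockout, a log2 difference of 1.22 (SE 0.33). Egr2 (log2 difference 1.96) and Egr4 (1.64) did not overlap between genotypes either, and neither passed edgeR's test, while DESeq2 called Egr4 (adjusted p = 0.0425). Without wild type 1 and knockout 2 the log2 differences were 0.87 for Egr1, 1.16 for Egr2 and 1.45 for Egr4. Nab2, a corepressor that Egr proteins induce, stood at 20.3, 32.3 and 40.9 CPM in wild type and 50, 44.2 and 55.1 CPM in knockout.

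The 3 orphan nuclear receptors of the Nr4a family were higher in every knockout library. None passed edgeR's test over all genes with 6 libraries and no pairing of replicate numbers. With same-numbered libraries paired, edgeR called Nr4a3 (adjusted p = 0.000362) and Nr4a1 (adjusted p = 0.0108). DESeq2 called Nr4a3 (adjusted p = 1.36e-12) and Nr4a2 (adjusted p = 2.46e-06). Nr4a3 stood at 16.3, 22 and 41.3 CPM in wild type and 111, 149.9 and 176 CPM in knockout, a log2 difference of 2.45 (SE 0.31, edgeR adjusted p = 0.0617). Nr4a2 stood at 13.6, 18.1 and 20.6 CPM in wild type and 55.8, 37 and 64.2 CPM in knockout, a log2 difference of 1.59 (SE 0.24, adjusted p = 0.156). Without wild type 1 and knockout 2, Nr4a2 passed, with a log2 fold change of 1.65 (SE 0.12, n = 2 against 2, edgeR adjusted p = 1.12e-05), while Nr4a3 did not (2.21, adjusted p = 0.632). Nr4a1 stood at 40.4, 68.9 and 146 CPM in wild type and 173, 251 and 303 CPM in knockout.

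Arc, Npas4 and 1700016P03Rik, which are induced by neuronal activity, had no overlap between genotypes. Arc, which acts at the postsynaptic density and in receptor endocytosis, stood at 62.5, 109 and 179 CPM in wild type and 241, 270.2 and 363 CPM in knockout, a log2 difference of 1.32 (SE 0.31). Npas4, an activity-dependent factor that regulates inhibitory synapses, stood at 29.9, 45 and 36.3 CPM in wild type and 67.3, 139 and 111 CPM in knockout (log2 difference 1.49, SE 0.25, edgeR adjusted p = 0.313). 1700016P03Rik, the host transcript of miR-212 and miR-132, stood at 2.03, 6.41 and 9.67 CPM in wild type and 15.6, 29.6 and 28.3 CPM in knockout. Homer1, a postsynaptic scaffold with a short activity-induced form, was 0.53 higher on the log2 scale, but knockout 1 (282 CPM) fell below wild type 1 (291 CPM). Without wild type 1 and knockout 2 it was also 0.53 higher, with no overlap. In those libraries the log2 differences were 1.08 for Arc, 1.13 for Npas4 and 1.48 for 1700016P03Rik.

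Among kinases and phosphatases of the list, several with small p were higher in each knockout library. Sik1, a CREB-regulated kinase, had a log2 difference of 0.76, Plk2, an activity-induced polo-like kinase, of 0.60, and Dusp1, a MAP kinase phosphatase, of 0.88. Dusp14 and Dusp6 were higher by 0.61 and 0.49. The kinase Pim1, at a low level, was higher by 1.40, at 3.52, 4.97 and 4.04 CPM in wild type and 6.59, 17.5 and 9.68 CPM in knockout. Without wild type 1 and knockout 2 it was higher by 0.84. None of these passed edgeR's test over all genes, while DESeq2 called Sik1 (adjusted p = 0.049). In Dusp4, Dusp5 and Plk3 the genotypes overlapped, with Dusp5 at 27.1 to 43.6 CPM in wild type and 39.3 to 52.7 CPM in knockout. Other members did not separate the genotypes either: Bdnf lay at 8.41 to 11.6 CPM in wild type and 8.77 to 10.9 CPM in knockout, and Zfp36, which binds AU-rich messenger RNAs, at 2.98 to 5.47 and 2.86 to 4.59 CPM.

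The calls of Fosl2, Egr3 and Fosb depended on which libraries were included. With 1 library left out, their log2 differences ranged from 1.55 to 1.84 for Fosl2, from 1.42 to 1.71 for Egr3 and from 2 to 2.46 for Fosb. With wild type 1 left out, each had an adjusted p of 0.683 (edgeR), with log2 differences of 1.67 for Fosl2, 1.54 for Egr3 and 2.05 for Fosb. Without wild type 2 the adjusted p was 0.109 for Fosl2, 0.128 for Egr3 and 0.12 for Fosb, and without knockout 3 it was 0.0971 for each. With wild type 1 and knockout 2 both left out, the log2 differences were 1.55 for Fosl2 (adjusted p = 0.515), 1.56 for Egr3 (0.224) and 2.10 for Fosb (0.558). In that fit 4 genes passed, 0.0242% of those tested: Cdr1as, Nr4a2, Xbp1 and Banp, of which Cdr1as was shared with the fit of 6 libraries.

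Banp, a nuclear matrix-associated protein that binds an unmethylated CpG motif, is no immediate early gene and showed little spread. It stood at 31.2, 31.4 and 36.8 CPM in wild type and 54.3, 50.7 and 59.1 CPM in knockout, with no overlap and a log2 difference of 0.73 (SE 0.14, edgeR adjusted p = 0.679). Without wild type 1 and knockout 2 it rose by 0.75 on the log2 scale (SE 0.11, n = 2 against 2, adjusted p = 0.046).

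Genes described as targets of miR-7 were examined next. Of 23 such genes, all tested, 5 were higher in knockout at an unadjusted p under 0.05 (21.7%, against 1.52% of all genes tested) and 1 was lower (4.35%, against 0.91%), and the median log2 difference was 0.126. Without wild type 1 and knockout 2, 4 were higher (17.4%, against 3.7%) and none lower, with a median of 0.107. Nr4a3 and Fos, which are also immediate early genes, were among the 5. Irs2, an adaptor of insulin signalling, stood at 33.7, 32.6 and 41 CPM in wild type and 61.9, 66.2 and 88.5 CPM in knockout, a log2 difference of 1.02 (SE 0.17, edgeR adjusted p = 0.313). Irs1 was 0.24 higher, and the transcription factor Sp1 was 0.39 lower, at 90.5, 89.7 and 80.9 CPM in wild type and 77, 52.4 and 69.1 CPM in knockout. Without wild type 1 and knockout 2 the log2 differences were 1.05 for Irs2, 0.18 for Irs1 and -0.22 for Sp1.

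Pax6, the miR-7 target of the dopaminergic lineage, was lower in each knockout library. It stood at 95.8, 96.5 and 86.5 CPM in wild type and 83.7, 73.8 and 79.4 CPM in knockout, a log2 difference of -0.23 (SE 0.11, edgeR unadjusted p = 0.0598). Th, at 126 to 140.2 CPM in wild type and 133 to 152 CPM in knockout, overlapped between the genotypes.

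Matches to the miR-7 seed in the longest annotated 3′ UTR (GENCODE M21, GRCm38) are shown for some of the genes whose values are given here, with the match in capitals and each window 30 bases long.
Egr3: atgtgaccggaggagatgGTCTTCCAtctg
Nr4a3: tacagccagtgttcttctGTCTTCCAtagt
Fos: tacagagaggagaaacacGTCTTCCctcga
Irs2: agacttgccctccctgttGTCTTCCActgt
Pax6: gtcaaaatgtaagtatttGTCTTCCctaga
The windows lie in GRCm38 at chr14:70080598-70080627 (plus strand) for Egr3, chr4:48086064-48086093 (plus) for Nr4a3, chr12:85476518-85476547 (plus) for Fos, chr8:10984829-10984858 (minus) for Irs2 and chr2:105696992-105697021 (plus) for Pax6. Irs1, Sp1 and Zfp36 hold matches as well, and Irs2 holds a further match, which are not shown. Fosl2 and Fosb, which rose, have no match to GTCTTCC in their longest 3′ UTR. Genes with such matches thus include ones that stood higher in the knockout bulb and ones that stood lower, as the values of Egr3 and Pax6 show.

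Over all genes, those with a miR-7 site had nearly the same median as those without. Of 13871 tested genes with an annotated 3′ UTR, 1979 (14.3%) held at least 1 GTCTTCC, and their median log2 difference was -0.008, against -0.005 for the 11892 without a site. At an unadjusted p under 0.05, 35 genes with a site were higher (1.77%) and 22 lower (1.11%), against 1.65% and 0.92% of genes without one. For the 593 genes with GTCTTCCA the median was -0.014. Among the immediate early genes, 11 held a site and had a median log2 difference of 0.65, and 43 did not and had a median of 0.61. Genes with a site had longer 3′ UTRs (median 2385 bases against 1079), and the part of this difference in the result was not tested.

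Promoters were searched because many early genes stood higher together. In the 250 bases before the start site (RefSeq, GRCm38.p6), a cyclic AMP response element, spelled TGACGTCA and its own reverse complement, was present for 5 of 42 immediate early genes with a promoter sequence (11.9%) and for 2.99% of 11237 tested genes. Its shorter form, TGACG on either strand, which also occurs inside TGACGTCA, was present for 26 of the 42 (61.9%) and for 29.5% of tested genes. The CArG box, bound by serum response factor, was found for 4 of the 42 (9.52%) and for 1.42% of tested genes. Among other elements searched, CCACG on either strand was present for 26 of the 42 (61.9%) and for 45.7% of tested genes. GAANNTTC was present for 4 (9.52%) and for 6.06%. Examples for genes higher in every knockout library are given with the element in capitals, as 30-base windows upstream of the start.
Plk2: agcgctcgccgTGACGTCAcgaggccccgc
Dusp1: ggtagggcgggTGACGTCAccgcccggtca
Egr2: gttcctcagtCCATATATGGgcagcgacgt
They lie in GRCm38.p6 at chr13:110394971-110395000 (plus strand) for Plk2, chr17:26508597-26508626 (minus) for Dusp1 and chr10:67537787-67537816 (plus) for Egr2. The same elements also stood before genes that overlapped between genotypes: the CArG box before Dusp5 and Zfp36, and TGACGTCA before Btg2 and Th. TGACGTCA stood before Pax6 too, and a CArG box before Aspa, and both genes were lower in each knockout library. Such a match is a description of the letters and does not show binding.

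The values of heat shock and chaperone genes, and of genes of the unfolded protein response, depended on the low-complexity libraries. With all 6 libraries, 3 of 22 heat shock and chaperone genes were higher at an unadjusted p under 0.05 (13.6%, against 1.52% of all genes tested), none was lower, and the median log2 difference was 0.15. With wild type 1 and knockout 2 left out, 14 of 22 were higher at that level (63.6%, against 3.7%) and 1 was lower (4.55%, against 4.13%), the cold-inducible Cirbp, and the median was 0.33. Dnajb1, a cochaperone of Hsp70, had the smallest p of the list in both: it stood at 19.4, 24.6 and 27.3 CPM in wild type and 40.9, 54.9 and 54.8 CPM in knockout, a log2 difference of 1.07 (SE 0.19, edgeR adjusted p = 0.357). Dnaja1 (log2 difference 0.30) and Bag3 (0.61), cochaperones as well, also had no overlap.

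The unfolded protein response genes respond to misfolded protein in the endoplasmic reticulum. With all 6 libraries, 1 of 21 was higher at an unadjusted p under 0.05 (4.76%, against 1.52% of all genes tested), and their median log2 difference was 0.03. In the 4 libraries other than wild type 1 and knockout 2 they gave 13 of 22 higher (59.1%, against 3.7% of all genes tested) and a median of 0.33. The list's median deviation was 0.37 in wild type 1, which was the highest of the 6 libraries, and -0.26 in knockout 2, close to the lowest (-0.28 in wild type 2). The chaperone Hspa5 showed the pattern: 446, 175 and 231 CPM in wild type and 356, 188 and 338 CPM in knockout. Its log2 difference was 0.06 with all libraries and 0.78 without wild type 1 and knockout 2 (SE 0.13, edgeR adjusted p = 0.127).

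Xbp1, a transcription factor of this response, had no overlap in either set of libraries. It stood at 76, 54.9 and 60.7 CPM in wild type and 91.7, 100.3 and 94.4 CPM in knockout, a log2 difference of 0.58 (SE 0.14, edgeR adjusted p = 0.992). With wild type 1 and knockout 2 left out it rose by 0.69 on the log2 scale (SE 0.10, n = 2 against 2, adjusted p = 0.0367). Which of the 2 sets of values is nearer to the tissue was not tested.

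**Figure D3:**
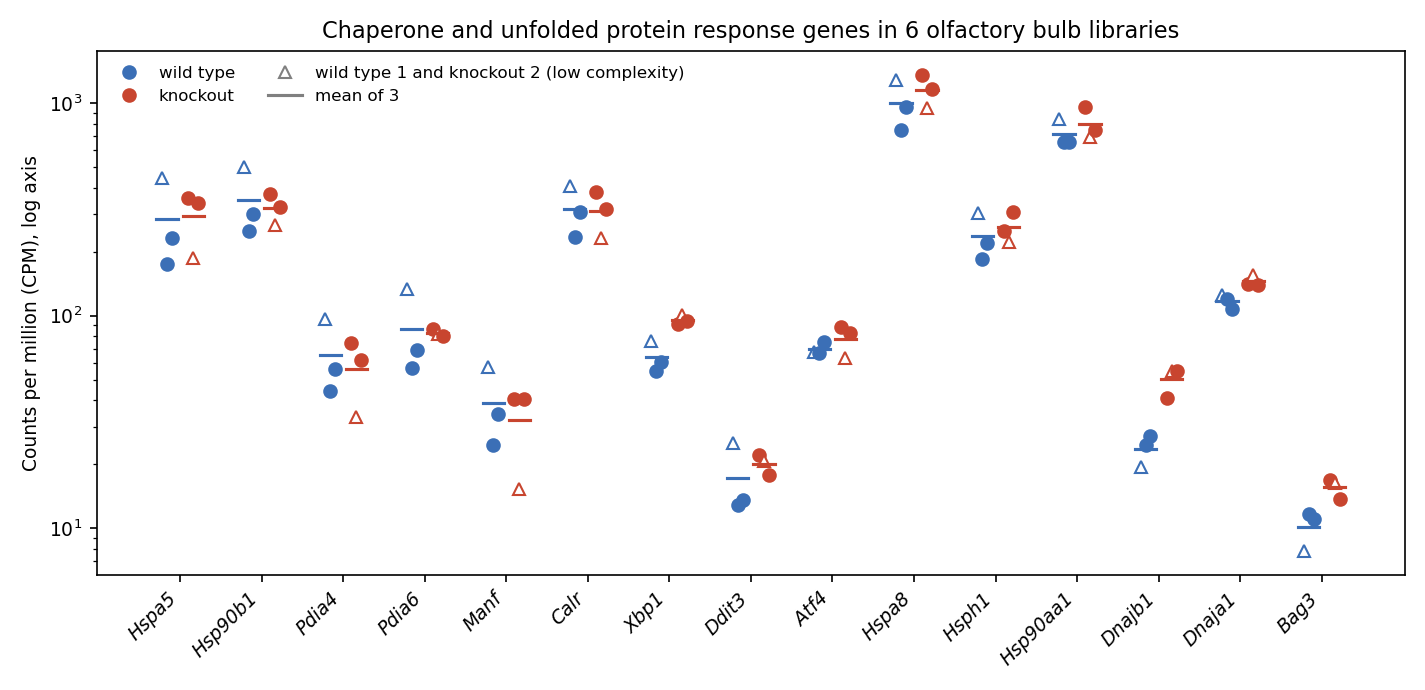
CPM on a log axis of 15 chaperone and unfolded protein response genes in each olfactory bulb library, drawn as in the plot of immediate early genes. For Hspa5 the open triangles run against the filled circles, with wild type 1 at 446 CPM and knockout 2 at 188 CPM, whereas for Xbp1 and Dnajb1 every knockout library lies above every wild-type library.

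Of 23 clock genes, 4 were higher (17.4%, against 1.52% of all genes tested) and 2 lower (8.7%, against 0.91%) at an unadjusted p under 0.05, and none passed edgeR's test over all genes. In the 4 libraries other than wild type 1 and knockout 2, 5 were higher (21.7%, against 3.7%) and 4 lower (17.4%, against 4.13%). The higher ones included Per1, which is also an immediate early gene, at 85.1, 109.9 and 151 CPM in wild type and 183, 243 and 243 CPM in knockout (log2 difference 0.95, SE 0.20, adjusted p = 0.974 in edgeR and 0.00262 in DESeq2). Nfil3, a repressor of D-box genes, was 0.77 higher and Per2 0.56 higher. Dbp, an activator at the D box, was lower in each knockout library, at 37.7, 51.7 and 39.5 CPM in wild type and 34.6, 25.2 and 30 CPM in knockout (log2 difference -0.52), and Nr1d2 was 0.27 lower on that scale, at 162, 146 and 129 CPM in wild type and 119.6, 120.5 and 121 CPM in knockout. Without wild type 1 and knockout 2 the log2 differences were 0.72 for Per1, 0.96 for Nfil3 and 0.27 for Per2. Those of Dbp and Nr1d2 were -0.50 and -0.19. The time of day of dissection is not stated in the labels.

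Glucocorticoid response genes gave 2 of 23 higher (8.7%, against 1.52% of all genes tested) and 1 lower (4.35%, against 0.91%) at an unadjusted p under 0.05, with a median log2 difference of 0.138. With wild type 1 and knockout 2 left out there were 4 higher (17.4%, against 3.7%) and 3 lower (13%, against 4.13%), with a median of 0.012. The 2 higher, Per1 and Dusp1, are on the list of immediate early genes as well. The lower was Mt2, a metallothionein, at 63.8, 65.3 and 53.2 CPM in wild type and 45.4, 33.4 and 45.3 CPM in knockout (log2 difference -0.54, SE 0.16). Plin4, a lipid droplet protein, stood at 4.61, 7.48 and 4.8 CPM in wild type and 1.72, 0 and 2.54 CPM in knockout.

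On the lower side no gene other than Cdr1as passed the test. Among expressed genes without overlap, those with the smallest p included Fam76b (log2 difference -0.70), Eif5, which acts in the choice of the start codon (-0.37), Adgrl4, an endothelial adhesion receptor (-0.60), Aox3, an aldehyde oxidase (-0.72), Aspa, the oligodendrocyte enzyme that hydrolyses N-acetylaspartate (-0.66), and the water channel Aqp1 (-0.50). Bahcc1 was the most even of them, at 99, 99.6 and 98.2 CPM in wild type and 79, 74.7 and 82.2 CPM in knockout. Each of these had an adjusted p of 0.992 in edgeR's quasi-likelihood test. Without overlap in the lower direction were 950 genes, 6% of those tested.

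Markers of the cell types of the bulb are read against the 1.52% of all genes that were higher, and the 0.91% that were lower, at an unadjusted p under 0.05. None of 18 mitral and tufted cell markers reached an unadjusted p of 0.05, and their median log2 difference was -0.015. Of 20 granule cell markers 1 was lower, Etv1, at 170.3, 144 and 133 CPM in wild type and 120.4, 129 and 119.5 CPM in knockout, and the list's median was -0.05. Of 16 markers of dopaminergic and periglomerular cells, Nr4a2, which is also an immediate early gene, was higher and Etv1, which is on both lists, was lower, with a median of -0.07. Of 22 neuroblast and neurogenesis genes, Dcx, a microtubule protein of migrating neuroblasts, was 0.23 lower, at 624, 627 and 538 CPM in wild type and 446, 549.7 and 527 CPM in knockout, and no other was past that level. In the 4 libraries other than wild type 1 and knockout 2, no mitral and tufted cell marker was past it, 3 of 20 granule cell markers were lower (15%, against 4.13%), and 3 of 22 neuroblast and neurogenesis genes were lower (13.6%) and 1 higher. Of 16 dopaminergic and periglomerular cell markers 1 was higher and 1 lower in those libraries (6.25% each, against 3.7% higher and 4.13% lower).

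Among markers of glia, vessels, meninges and choroid plexus, those at an unadjusted p under 0.05 were lower in knockout. They were Fgfr3 among 17 astrocyte markers (log2 difference -0.33), Aspa among 19 oligodendrocyte and myelin genes (-0.66), Ly6c1 among 20 endothelial and mural markers (-0.65), Ogn among 18 meningeal and fibroblast markers (-0.61), and Aqp1 and Ttr among 7 choroid plexus and ependymal markers tested (28.6%, against 0.91% of all genes tested). When wild type 1 and knockout 2 were left out, 4 of 20 endothelial and mural markers were lower (20%, against 4.13%), as were 4 of 18 meningeal and fibroblast markers (22.2%), whose median moved from -0.09 to -0.377, and none of either list was higher. None of 18 microglia and macrophage markers, 14 markers of olfactory ensheathing glia or 19 markers of cortex and anterior olfactory nucleus reached an unadjusted p of 0.05. Without wild type 1 and knockout 2 the microglia list had 2 of 19 lower (10.5%), the cortex list 1 of 19 higher, and the ensheathing glia list none. In the same fit 1 of 17 astrocyte markers was lower (5.88%), and of 19 oligodendrocyte and myelin genes 1 was lower and 1 higher (5.26% each). Of 9 choroid plexus and ependymal markers 2 were lower there (22.2%). The cortex list stood apart in a single library, with a median deviation of 0.48 in knockout 1 and between -0.19 and 0.08 in the other 5. Of 16 choroid plexus and ependymal markers 7 were tested, of which 3 were higher by sign. The summed level of the 16 was 56.9 to 60.8 CPM in wild type and 40.04 to 46 CPM in knockout. Much of that sum was Aqp1, at 33.3, 38.5 and 40.1 CPM in wild type and 27.7, 24.2 and 27.2 CPM in knockout. Ttr stood at 13.4 CPM in wild type 1 and at most 0.929 CPM elsewhere. The sum thus does not describe the list as a whole. The part of these markers in the immediate early gene result was not tested.

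**Figure D4:**
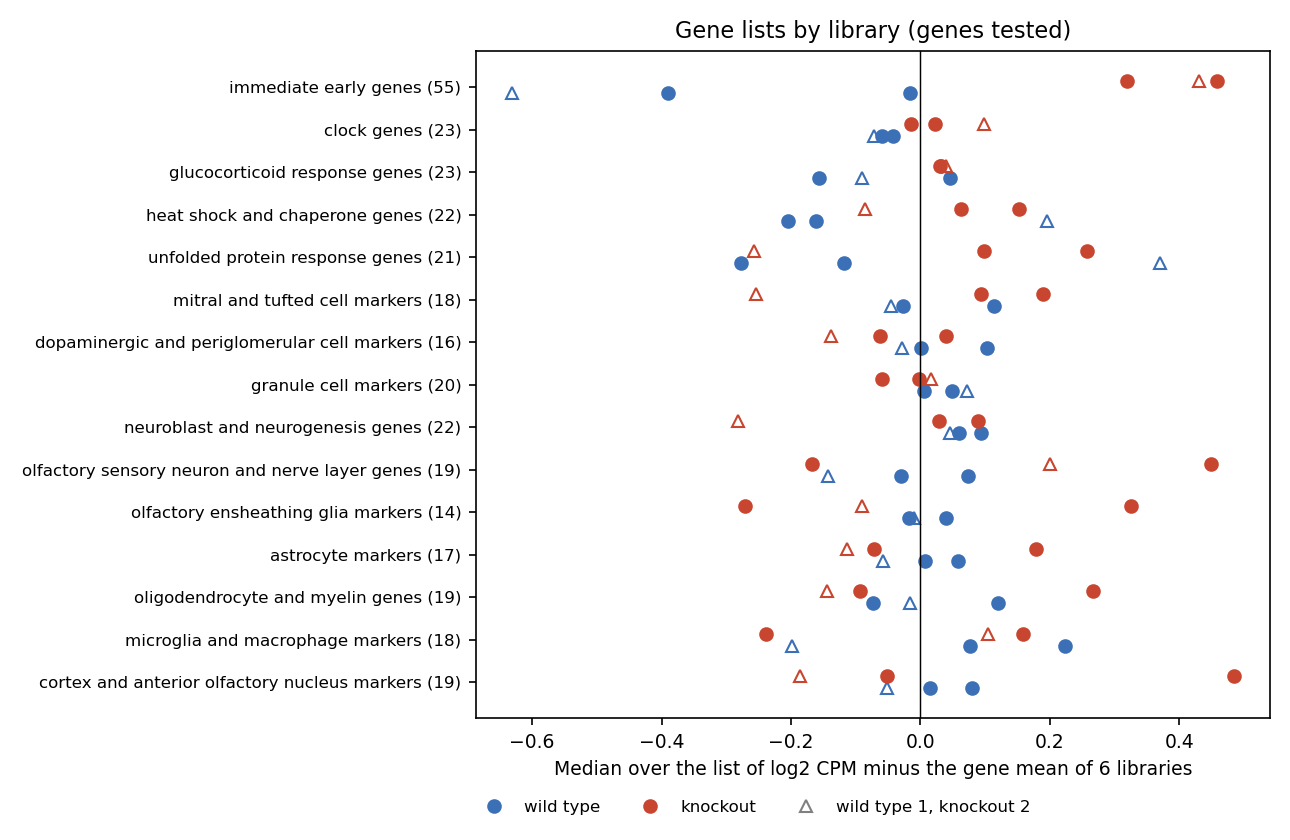
Median over each gene list of log2 CPM minus the gene's mean over the 6 libraries (horizontal axis), 1 symbol for each library, with the number of genes tested in brackets. Immediate early genes run from -0.63 in wild type 1 to 0.46 in knockout 3 with no overlap between the genotypes, and open triangles mark wild type 1 and knockout 2.

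The knockout effect in the bulb was compared with its mean in cerebellum, cortex and hippocampus in 1 fit of all 24 libraries. None of 17600 genes passed the test of this difference (0%, edgeR's quasi-likelihood test), and 646 had an unadjusted p under 0.05 (3.67%). DESeq2 was not run on this contrast. The other regions also held a shallow library, cerebellum knockout 1, with 6500197 counts and 13741 genes with at least 1 count. It was kept in this fit and in the separate fit of cerebellum, so cerebellum values below are limited by it. Reads in no feature ranged from 20.3% in cortex wild type 1 to 62.9% in bulb knockout 2 and bulb wild type 2. Of 55 immediate early genes 12 had a larger effect in the bulb at that level and none a smaller one, against 2.61% and 1.06% of all genes, and the list's median difference was 0.24 on the log2 scale. Without wild type 1 and knockout 2, 214 genes were at that level for this contrast in place of 646. The immediate early genes were not counted again in that setting.

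Nr4a3 had the smallest p of all genes for this contrast, with an effect 1.29 larger in the bulb on the log2 scale (SE 0.29, edgeR unadjusted p = 0.000181, adjusted p = 1). In separate fits its log2 difference was 1.96 in cerebellum, 0.99 in cortex and 0.55 in hippocampus, against 2.45 in the bulb. Fosl2 stood 1.68 higher in the bulb knockout, 1.22 in cerebellum, 0.56 in cortex and 0.13 in hippocampus (effect 1.05 larger in the bulb, SE 0.26, unadjusted p = 0.00058). Plk2 had log2 differences of 0.60 in the bulb and between -0.09 and 0.09 in the other 3 regions.

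Other early genes stood about as high in some of the other regions as in the bulb. Fos had log2 differences of 1.70 in the bulb, 2.27 in cerebellum, 1.75 in cortex and 1.68 in hippocampus, and Npas4 of 1.49, 1.55, 1.62 and 1.39 in the same order. Arc had a difference of 1.32 in the bulb, -0.10 in cerebellum, 1.81 in cortex and 1.29 in hippocampus. Banp, outside the early genes, stood higher by 0.73, 0.72, 0.66 and 0.56 in bulb, cerebellum, cortex and hippocampus.

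**Figure D5:**
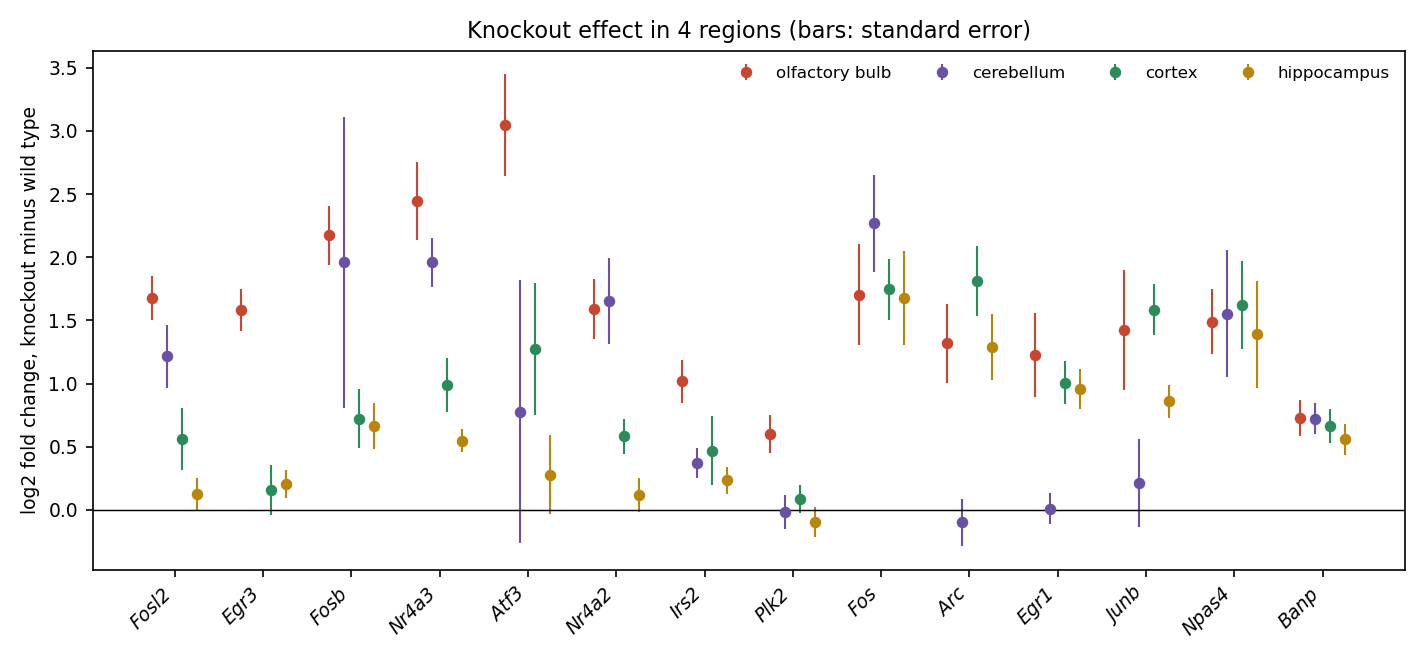
Log2 fold change of knockout over wild type with its standard error, from separate fits in olfactory bulb, cerebellum, cortex and hippocampus (n = 3 against 3 in each), for 14 genes. Egr3 has no cerebellum value because it was below the count filter there, and Banp lies between 0.56 and 0.73 in all 4 regions.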

How the data were processed

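Counts per gene were deposited by the authors as 1 table for each library, with 37621 gene entries that were used as deposited. Per the submitters' processing notes the tools were HTSeq 0.6.1p1, STAR 2.5.1b and bcl2fastq 2.17.1.14 with the mm9 genome, while settings, including the strand used in counting, were not given in the sources used here. Of 37620 Ensembl identifiers, 32897 were named through GENCODE M21, holding 98.56% of counts. Summary entries were left out of library sizes: reads in no feature were 52.3% to 62.9%, not unique 8.8% to 11.1% and ambiguous 0.2% to 0.26% of each bulb library.

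Knockout was compared with wild type with edgeR 4.0.16 (R 4.3.3; filterByExpr with a minimum count of 10, TMM scaling, quasi-likelihood test, Benjamini-Hochberg adjustment over all genes, threshold 0.05), tested on simulated data. CPM values are counts scaled to TMM-adjusted library totals, and log2 CPM adds a prior count of 2. SE is the fold change divided by the square root of F. Replicates of a genotype differed by more than sampling noise in each pair (chi-square per degree of freedom 12.07 to 24.73).

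Alternatives were DESeq2 1.42.0, RLE scaling, other count filters, the replicate block, quality weights (limma 3.58.1), a fit of all 24 libraries, a covariate for the unassigned reads, and leaving out libraries.

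Genes named are those past the threshold, the smallest p in each direction (to 12, mean log2 CPM of at least 1, no overlap), the leading members of 40 gene lists, and genes set by hand. These lists, genes and the comparison were chosen with earlier results of these data known. Sequences were read from RefSeq and GENCODE M21 on GRCm38 and share no coordinates with the mm9 counts.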

Additional observations from a re-analysis of the deposited data

How the results depend on the processing

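The number of genes past the threshold was 4 and became 17 with DESeq2, 16 with no low-count filter, 13 with sample quality weights (2 shared with the 4), 7 in a fit of all 24 libraries, 6 with a covariate for the percentage of reads outside genes, and 4 with RLE scaling, with a stricter count filter or without wild type 1 and knockout 2. Leaving out 1 library gave 1 to 8: 1 without knockout 3, wild type 1 or wild type 2, 5 without knockout 1 or knockout 2, and 8 without wild type 3. Cdr1as passed in each of these. Fosl2 (adjusted p = 0.147) and Fosb (0.1) did not pass with quality weights in limma, nor Egr3 (0.413) and Fosb (0.0531) in edgeR's fit of all 24 libraries. The genes that passed in the fit of all 24 libraries were Cdr1as, Fosl2, Nr4a3, Nr4a2, Atf3, Per1 and Banp. The count of immediate early genes higher at an unadjusted p under 0.05 ranged from 26 to 42 over these settings, with none lower. Their median log2 difference was 0.65 with all libraries and 0.59 to 0.88 with 1 left out, lowest without knockout 3 and highest without wild type 3. The median of heat shock genes was 0.33 without wild type 1 and knockout 2, and leaving out 1 library gave 0.01 to 0.31. For the unfolded protein response genes that range was -0.1 to 0.23. The log2 difference of Hspa5 was -0.11 with the covariate and ranged from -0.21 without wild type 2 to 0.54 without wild type 1. The comparison with other regions gave 0 genes except 1, Nr4a3, without wild type 3. Apart from the fewer libraries tested, the cause was not tested.

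Whether replicate numbers pair the libraries was left undecided. Over 13372 genes, deviations of same-numbered libraries correlated at -0.02, 0.02 and 0.06, but pairing that touched few genes would not show in such a correlation. Not every library correlated best with its own number (wild type 1 with knockout 2 at 0.02). The median deviation of the immediate early list, however, climbed with replicate number within each genotype. With the replicate block, which pairs same-numbered libraries, 11 genes passed in edgeR, 10 of them immediate early genes. Beside Cdr1as, Fosl2, Egr3 and Fosb these were Nr4a3, Nr4a1, Arc, Fos, Npas4, Per1 and Atf3. The adjusted p was 0.0207 for Fos, 0.0109 for Arc, 0.00621 for Npas4, 0.0196 for Per1 and 0.0464 for Atf3. The block lowered the SE of Nr4a1 (0.39 to 0.18) and Arc (0.31 to 0.16), and raised that of Atf3 (0.40 to 0.42).

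Knockout 2, with 5175203 counts, and wild type 1, with 7395560, limit what can be said of genes with low counts, and 3 libraries a group limit the test over all genes.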

Other observations

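Genes of neuronal signalling are read against the 1.52% of all genes that were higher, and the 0.91% that were lower, at an unadjusted p under 0.05 with 6 libraries. Of 43 potassium channel genes 2 were higher (4.65%) and 1 lower (2.33%), with Kcnj9, a subunit of G protein-gated channels, 0.38 higher on the log2 scale and Kcnj2, an inward rectifier, 0.48 lower. Of 34 glutamate receptor genes 1 was higher (2.94%): Grm4, a presynaptic metabotropic receptor, with a log2 difference of 0.24, at 142, 159.9 and 157 CPM in wild type and 173, 179 and 192 CPM in knockout. None of 27 GABA and glycine synapse genes and none of 36 presynaptic release genes reached that level. Of 28 sodium and calcium channel genes 1 was higher (3.57%), Cacnb1, by 0.39. When wild type 1 and knockout 2 were left out, where 3.7% of all genes were higher and 4.13% lower, there were 3 glutamate receptor genes higher (8.82%), 3 presynaptic release genes higher (8.33%) and 1 potassium channel gene in each direction (2.27%). There 1 glutamate receptor gene was lower (2.94%) and 1 of 28 GABA and glycine synapse genes was higher (3.57%). Of 28 sodium and calcium channel genes 2 were higher (7.14%) and 1 lower (3.57%). Of 26 neuropeptide and granule genes 2 were higher with 6 libraries (7.69%) and none lower, 12 were higher by sign, and the median log2 difference was -0.014. The 2 were the secretory granule proteins Chga and Chgb, higher by 0.38 and 0.39. Without wild type 1 and knockout 2 the list had 2 higher (7.69%), none lower and a median of 0.19. Pcsk1, a prohormone convertase on this list, stood at 96.3, 60.1 and 62.8 CPM in wild type and 89.1, 94.6 and 102 CPM in knockout. None of these genes passed edgeR's test over all genes, while Pcsk1 passed with sample quality weights in limma.

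Cytosolic ribosomal protein genes gave 4 of 86 higher at an unadjusted p under 0.05 with all 6 libraries (4.65%, against 1.52% of all genes) and 19 without wild type 1 and knockout 2 (22.1%, against 3.7%), with median log2 differences of 0.072 and 0.169. Their summed level was 8383 CPM in knockout 1 and 6739 to 7412 CPM in the other 5 libraries.

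Some genes were high in a single library, and were chosen for mention after their values were seen. Gh, growth hormone, stood at 448 CPM in knockout 3 and at most 6.64 CPM elsewhere, and Pomc at 8.18 CPM in knockout 3 and at most 1.36 CPM elsewhere. Bpifb9b stood at 113 CPM in knockout 2 and at most 2.03 CPM elsewhere. Gpx6 stood at 23.9 CPM in wild type 3 and at most 1.3 CPM elsewhere. Col1a1, a fibrillar collagen, stood at 313 CPM in knockout 2, 172 CPM in wild type 3 and 30.9 to 56.5 CPM in the other 4 libraries. Enpp6, of newly formed oligodendrocytes, stood at 28.2 CPM in knockout 2 and 4.47 to 6.31 CPM elsewhere.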
